A study of Mus musculus with 11 samples.

Results

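Txndc5, Txndc11, Kdelr3 and Dnajc3 are genes of protein folding and retrieval in the endoplasmic reticulum (ER). They were chosen by name, for their shared compartment, and not by a cut on a measured value, but earlier results of these data were known. All 4 were among the 1293 genes held here, had a value in every library and passed the filter on low counts, as did 769 genes in all. Their RNA was measured in fibroblasts isolated from the infarcted left ventricle of mice, 3 days after myocardial infarction, as poly(A) RNA-seq. Bulk RNA cannot tell fewer cells of a type from less RNA per cell.

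The 5 CKO libraries came from mice in which Pw1 (gene symbol Peg3) is deleted conditionally. CKO 1 to 3 carry the genotype label Pdgfra-Cre;Pw1fl/fl, and the other 2 carry PDGFRa Cre+;Pw1 fl/fl. The column headers read Peg3KO for CKO 1 to 3 and Peg3CKO for the other 2. Pdgfra drives the Cre, so recombination is directed to cells of the Pdgfra lineage and is not limited to the cells that were sequenced. The 6 control libraries are of 2 kinds: controls 1 to 3 are labelled wild type, Pw1fl/+ or Pw1fl/fl without saying which applies to which library, and controls 4 to 6 are labelled Pw1 fl/fl. No label gives these controls a Cre. Label set 1 below means CKO 1 to 3 and controls 1 to 3, and label set 2 means the remaining libraries. The 2 CKO libraries of set 2 are called CKO a and CKO b. They could be tied by name to their group and not to a single replicate, since the numbers in their names match no sample. Their place in set 2, and so their genotype label, was taken by elimination, and every set 2 result rests on it. Age, sex, strain and pooling of animals are not given in the labels, so the p-values measure the spread between these libraries, which may be technical in part.

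Proteins that enter the secretory pathway fold in the ER, where enzymes of the protein disulfide isomerase family form and rearrange disulfide bonds and chaperones hold unfinished chains. Soluble ER residents that escape to the Golgi are caught by KDEL receptors and carried back. When unfolded proteins build up, the unfolded protein response raises the transcription of many of these genes. Activated cardiac fibroblasts secrete large amounts of collagen and other matrix after infarction and rely on this machinery. Txndc5 is a disulfide isomerase with thioredoxin domains, and in mouse hearts it is known to promote fibrosis. Txndc11 is a thioredoxin-domain protein of the ER membrane. Kdelr3 is a KDEL receptor. Dnajc3 (P58IPK) is an ER co-chaperone of BiP that also restrains the kinase PERK.

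Short stretches of their promoters are shown because transcription factors of the unfolded protein response bind short motifs there. The motifs searched, on both strands, were the UPR element TGACGTGG, the ER stress response element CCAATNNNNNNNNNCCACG and the C/EBP-ATF element TGATGNAAT. The first 2 share the bases CCACG when the UPR element is read on its other strand, but no stretch printed here held both. The windows ran from 250 bases before to 50 after each annotated start, from RefSeq on GRCm38.p6, and all 4 genes had one. Capitals mark the motif, and each stretch is given 5′ to 3′ on the strand of its gene.
Txndc5: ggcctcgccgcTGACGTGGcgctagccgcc
Txndc11: tgaagtgtggcTGACGTGGagagtccgggt
Kdelr3: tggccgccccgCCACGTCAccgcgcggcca
Dnajc3: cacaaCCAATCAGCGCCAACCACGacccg
The Txndc5 stretch lies at chr13:38528034-38528063 on the minus strand, 130 bases before a start, in 1 of its 3 windows. That of Txndc11 lies at chr16:11134616-11134645 on the minus strand, 94 bases before a start, in 1 of its 2 windows. Both of these stretches lie inside the span of their gene given below, so the start they precede is not the outermost one. The Kdelr3 stretch lies at chr15:79516367-79516396 on the plus strand, with the UPR element reversed and 22 bases before the start. Dnajc3 has the ER stress response element, at chr14:118937822-118937850 on the plus strand, 86 bases before the start. The UPR element occurred in the windows of 0.714% of 27025 genes, the ER stress response element in those of 0.137% and the C/EBP-ATF element in those of 1.08%. Of 10 other genes from the ER lists used below that had a window, 1 held any of the 3 motifs, which was Gbf1. These matches describe the letters of the windows and say nothing of binding in these cells.

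In the gene table of GRCm38.p6, Txndc5 (gene ID 105245) spans chr13:38500266-38528824 on the minus strand and Txndc11 (106200) spans chr16:11074911-11134645 on the minus strand. Kdelr3 (105785) spans chr15:79516408-79527739 on the plus strand and Dnajc3 (100037258) spans chr14:118937932-118981702 on the plus strand. In GENCODE M21, genes on the opposite strand overlap 3 of them. Bmp6 and Snn meet the ends of Txndc5 and Txndc11, Ddx17 that of Kdelr3, and the antisense gene Gm31834 and the pseudogene Gm47994 also overlap Txndc5. Whether strand was used in counting is not given in the sources used here, so reads from these overlaps cannot be told apart. Dnajc3 has no overlapping gene.

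The recovered depth was 20359840 to 20610517 reads in CKO 1 to 3 and 20374384 to 20661530 in the 6 controls. These totals are estimates: they rest on a line over 29 genes in control 1, whose slope had 95% bounds of 1.85e+07 to 2.11e+07 reads. This uncertainty is shared by the 9 libraries and carries over to the effective lengths in nt. The genes held took 2.89% to 3.09% of the reads in CKO 1 to 3 and the controls. Shares of all genes given below are shares of this part and may not stand for the other genes. The genes held took 535048 reads in CKO a and 542843 in CKO b, and the totals of these libraries were not recovered here because their FPKM columns were not used. Transcripts were shorter on average in CKO libraries: the mean transcript length of the library, given by the ratio of TPM to FPKM, was 1540 to 1675 nt in CKO 1 to 3, against 2166 to 2294 nt in the controls. The fibroblast label could not be checked on its defining markers, since only 3 of 28 were held. Emilin1 was higher in CKO (log2 change 0.61), Col16a1 lower (-2.49) and Ltbp4 not called (-0.08), and they summed to 322 to 430.4 CPM in CKO and 358 to 513 CPM in control libraries. The other cell types rest on few markers, and genes outside the marker lists were not examined for cell type. The sums therefore do not measure how much RNA of a cell type a library held. Macrophage and monocyte markers held (2 of 24) summed to 78.5 to 224 CPM in CKO and 70.5 to 90.2 CPM in control libraries, with Ly6c2 higher in CKO (1.01) and Cd300ld4 lower (-4.53). Erythroid markers (2 of 10) summed to 10.1 to 31.4 CPM in CKO and 1.82 to 3.46 CPM in control libraries. No marker of endothelial cells, cardiomyocytes, smooth muscle, neutrophils or lymphocytes was held, and Peg3, the targeted gene, was not analysed here. The part of these differences in the results was not tested.

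The comparison of CKO with control fibroblasts asks what loss of Pw1 does to their RNA, and the series is concerned with extracellular matrix genes. The 4 ER genes did not move together. Kdelr3 was 2.52-fold higher in CKO libraries, Txndc5 was lower at 0.815-fold of control and Txndc11 was lower at 0.843-fold. Dnajc3 did not pass the test. So 3 of 4 were called, where 71.5% of the 769 genes tested passed the same test (34.1% higher and 37.5% lower). The count of the 4 is near that background. Tests are edgeR's quasi-likelihood test with Benjamini-Hochberg adjustment over the 769 genes, called under 0.05, with label set in the model. Levels are CPM, read counts normalised to library size with TMM scaling.

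Txndc5 is the isomerase of the group and its most abundant member. It had 219, 222, 235, 189 and 201 CPM in CKO 1, 2, 3, a and b. In controls 1 to 6 it had 261, 247, 261, 262, 263 and 266 CPM. Every CKO library lay below every control library. The means were 213 ± 18.0 CPM in CKO (SD, n = 5) and 260.1 ± 6.57 CPM in control libraries (SD, n = 6). The log2 change was -0.30 (SE 0.06), with an adjusted p of 0.00121 in edgeR.

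Kdelr3, the retrieval receptor, had 79.9, 58.2, 58.5, 130.3 and 119.7 CPM in CKO 1, 2, 3, a and b. In controls 1 to 6 it had 35.1, 31.9, 34.4, 38.0, 34.5 and 35.3 CPM. All 5 CKO libraries were higher than all 6 controls, and CKO a and b stood above CKO 1 to 3. The mean was 89.3 ± 33.9 CPM in CKO (SD, n = 5) and 34.9 ± 1.96 CPM in control libraries (SD, n = 6). The log2 change was 1.34 (SE 0.16), with an adjusted p of 2.13e-05 in edgeR. The groups of 2 of the 4 genes, Txndc5 and Kdelr3, did not overlap, which was also the case for 56.4% of the genes tested.

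Txndc11, the membrane-bound thioredoxin-domain protein, is the least abundant of the 4. It had 21.5, 23.5, 25.0, 14.9 and 21.3 CPM in CKO 1, 2, 3, a and b. Controls 1 to 6 had 25.8, 24.9, 27.2, 24.0, 23.0 and 23.0 CPM. The groups overlapped: CKO 2 and 3 lay within the range of the controls, CKO 1, a and b below it, and CKO a was the lowest library. Behind these values stood 212 to 485 reads in CKO and 524 to 637 reads in control libraries. The mean was 21.2 ± 3.85 CPM in CKO (SD, n = 5) and 24.7 ± 1.65 CPM in control libraries (SD, n = 6). The log2 change was -0.25 (SE 0.10), with an adjusted p of 0.0404 in edgeR. This call rests on single libraries: without CKO a the change was -0.12 and the adjusted p 0.131, and the call was lost in 8 of the 11 fits that left out 1 library.

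Dnajc3, the co-chaperone, had 100.05, 98.0, 102, 100.5 and 96.5 CPM in CKO 1, 2, 3, a and b. Controls 1 to 6 had 91.9, 96.9, 95.1, 85.9, 93.6 and 94.3 CPM. The groups touched, with CKO b just under control 2 and the other CKO libraries above every control. This order depends on the TMM factors, which were 0.772 to 0.947 in CKO and 1.11 to 1.14 in control libraries. Before scaling, every CKO library had fewer Dnajc3 reads (1429 to 1988) than every control (1998 to 2261). Its FPKM was also lower, at 17.1 to 18.6 in CKO 1 to 3 and 18.8 to 21.0 in the controls. The means were 99.5 ± 2.32 CPM in CKO (SD, n = 5) and 93.0 ± 3.85 CPM in control libraries (SD, n = 6). The log2 difference of 0.09 (SE 0.05) had an adjusted p of 0.119 in edgeR, and DESeq2 gave 0.12 with an adjusted p of 0.0179.

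**Figure D1:**
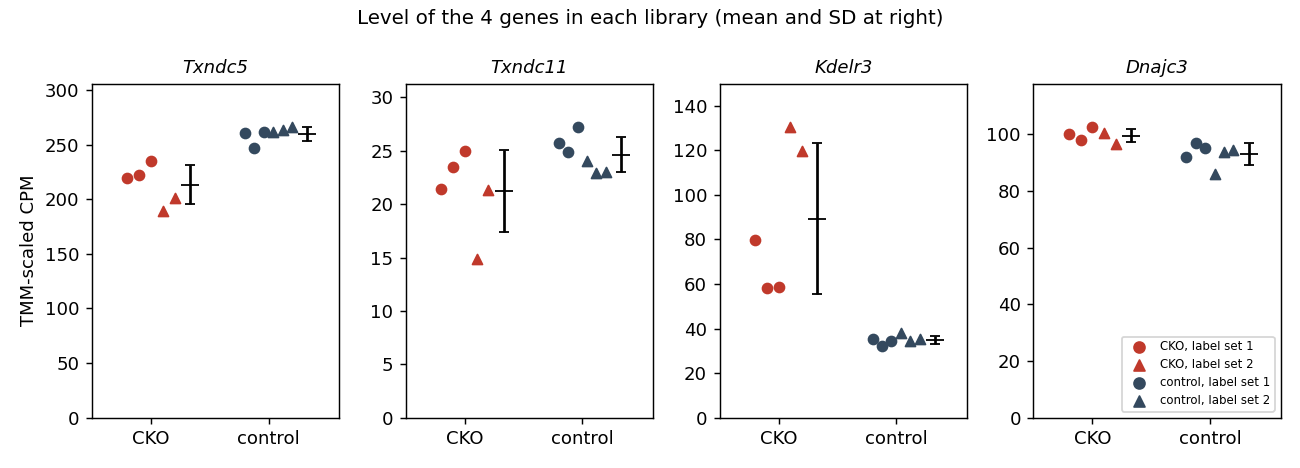
TMM-scaled CPM (vertical axes from 0) of Txndc5, Txndc11, Kdelr3 and Dnajc3 in each CKO library (red, left) and control library (dark, right), with circles for label set 1, triangles for label set 2 and the mean and SD of each group beside its points. Kdelr3 sits at 58.2 to 130.3 CPM in CKO and 31.9 to 38.0 CPM in control libraries, Txndc5 is lower in all 5 CKO libraries, and the groups overlap for Txndc11 and Dnajc3.

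The sizes differed between the label sets for 2 of the genes. In label set 2, Kdelr3 was 1.80 higher on the log2 scale in CKO (adjusted p = 2.89e-07 in edgeR), and in label set 1 it was 0.95 higher (adjusted p = 3.21e-05 in edgeR). The difference between the sets, 0.84 (SE 0.17), had an adjusted p of 0.00293. Txndc5 had a log2 change of -0.43 (SE 0.06) in set 2 and of -0.19 (SE 0.05) in set 1, with adjusted p of 4.24e-05 and 0.00756 in edgeR. Its difference between sets was -0.25 (SE 0.08), with an adjusted p of 0.0274. That call was lost without CKO 3 (adjusted p = 0.0623 in edgeR), CKO a (0.111) or control 2 (0.0601). Txndc11 had -0.36 in set 2 (adjusted p = 0.0281 in edgeR) and -0.15 in set 1 (adjusted p = 0.254), and the test of the difference, -0.21 (SE 0.18), had an adjusted p of 0.363. Without CKO a its set 2 value was -0.11, and the difference between the sets was 0.03. Without CKO b that difference was -0.52 (adjusted p = 0.0175), where the lone CKO library of set 2 is assumed to vary like the others. Dnajc3 had 0.11 in set 2 and 0.08 in set 1, and neither passed the test.

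These counts again need the background of all genes tested here. In set 1, 2 of the 4 genes were called, where 65.7% of all genes were. In set 2, 3 of the 4 were called, where 74.4% of all genes were. The difference between sets was called for 2 of the 4 genes and for 42% of all genes. Between the 2 kinds of controls, set 2 over set 1, none of the 4 was called in edgeR, nor was any at an unadjusted p under 0.05, while 9.1% of all genes were called. Their control differences on the log2 scale were 0.04 for Txndc5, -0.15 for Txndc11, 0.09 for Kdelr3 and -0.05 for Dnajc3. Set 2 holds the 2 CKO libraries whose totals were not recovered. The label set, the genotype wording and the sequencing of these libraries cannot be told apart.

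Ratios between 2 genes within a library do not depend on how libraries are scaled to each other. All 6 pairs were compared with an exact permutation test within label sets, 2-sided, over 200 relabellings, where the smallest possible p is 0.01. Txndc5 had 2.75, 3.82, 4.02, 1.45 and 1.68 reads per Kdelr3 read in CKO 1, 2, 3, a and b. The controls had 6.88 to 7.74, so the 2 groups stood well apart. The log2 ratio differed by -1.68, CKO minus control, with an exact permutation p of 0.01, or 0.012 adjusted over the 6 pairs. Txndc5 reads per Dnajc3 read were 1.89 to 2.29 in CKO and 2.55 to 3.05 in control libraries, a log2 difference of -0.41 (same exact permutation p). The ratio of Kdelr3 to Dnajc3 was 0.571 to 1.30 in CKO and 0.329 to 0.443 in control libraries, a log2 difference of 1.27 (same exact permutation p).

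Txndc5 and Txndc11 kept to a similar ratio of reads. It was 9.39 to 12.7 in CKO and 9.61 to 11.5 in control libraries, and the log2 difference of -0.04 had an exact permutation p of 0.67. The log2 ratio of Txndc11 to Dnajc3 differed by -0.37 and that of Txndc11 to Kdelr3 by -1.64, with an exact permutation adjusted p of 0.012 for both. The groups did not overlap in 5 of the 6 log2 ratios, the exception being Txndc5 to Txndc11, but for Txndc11 to Dnajc3 the gap between the nearest CKO and control libraries was only 0.0017. No background over all gene pairs was computed, so the count of 5 in 6 is not a result particular to these pairs. Of single genes tested, 56.4% had groups that did not overlap in CPM. Within set 1 alone, 3 libraries against 3, the exact permutation p cannot go below 0.1. These ratios still carry transcript length: once the trend with length was taken out of each library, the log2 ratio of Kdelr3 to Dnajc3 differed by -0.11 in place of 1.27. With that trend removed, the other ratios kept their direction and changed in size. Those of Txndc5 and Txndc11 to Dnajc3 then differed by -1.10 and -1.03, and those to Kdelr3 by -0.99 and -0.92. The trend took the length of each gene from the control libraries, so a length that differs between groups stays in it. In FPKM within set 1, the log2 ratio of Txndc11 to Dnajc3 turned to 0.49, from -0.24 in reads. That of Txndc11 to Kdelr3 was -0.36, against -1.10 in reads.

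Levels of different genes were compared per length, in the authors' TPM, in the 9 libraries matched to a sample. The order was the same in all 9: Txndc5, then Kdelr3, Dnajc3 and Txndc11. Txndc5 had 115.2, 133 and 142 TPM in CKO 1 to 3 and 236 to 260.4 TPM (median 246) in the 6 controls. Kdelr3 had 79.1, 65.9 and 67.1 TPM in CKO 1 to 3 and 58.1 to 72.1 TPM (median 61.9) in the controls. These groups overlapped, unlike the CPM of the same gene. Dnajc3 had 26.3, 29.5 and 31.2 TPM in CKO 1 to 3 and 43.2 to 46.8 TPM (median 44.1) in the controls. Txndc11 had 17.2, 20.5 and 23.1 TPM in CKO 1 to 3 and 19.2 to 24.0 TPM (median 21.7) in the controls. Per length, Kdelr3 and Dnajc3 were neighbours that did not overlap in any group, and neither did Dnajc3 and Txndc11.

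Set against Txndc5 in the same library, the 3 other genes held a larger share in CKO. On the FPKM scale Kdelr3 was 55.2% ± 11.8 of Txndc5 in CKO (SD, n = 3) and 25.5% ± 1.10 in control libraries (SD, n = 6). Dnajc3 was 22.3% ± 0.454 of Txndc5 in CKO (SD, n = 3) and 18.1% ± 1.05 in control libraries (SD, n = 6). Txndc11 was 15.5% ± 0.637 of Txndc5 in CKO (SD, n = 3) and 8.66% ± 0.697 in control libraries (SD, n = 6). For Txndc11 this goes against the reads, whose ratio to Txndc5 was alike in both groups.

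FPKM divides reads by effective length, and the effective length of Txndc11 differed between the groups. That length was recovered here from each library's count, total and FPKM: it is the length the authors' estimate assigned to the mix of transcripts it saw. It was 1706, 1798 and 1722 nt in CKO 1 to 3, against 2824 to 2932 nt (median 2887) in the 6 controls. The CKO libraries thus stood far below all controls, at 0.603-fold. The log2 difference was -0.73, and within set 1 it was also -0.73. The exact 2-sided permutation p was 0.0238 for each of the 4 genes, the smallest this design gives, so the p does not set Txndc11 apart and the size does. This comparison was chosen after the values were seen. In FPKM, Txndc11 was 11.2, 12.3 and 13.8 in CKO 1 to 3 and 8.85 to 10.9 in control libraries, so it was higher in CKO while its CPM was below or within the control range.

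In the other 3 genes the groups were also separate, but the log2 differences were -0.0081 for Txndc5, 0.0018 for Kdelr3 and 0.0018 for Dnajc3. Txndc5 had an implied length of 2611 to 2622 nt in CKO 1 to 3 and 2632 to 2633 nt in the controls. For Kdelr3 it was 1384 to 1385 nt in CKO 1 to 3 and 1382 to 1383 nt in the controls. For Dnajc3 it was 5211 to 5217 nt in CKO 1 to 3 and 5206 to 5208 nt in the controls. Among 418 genes with an FPKM of at least 2 in all 9 libraries, 4, or 0.957%, differed by at least 0.5 on the log2 scale, and Txndc11 was the second of them by size, after Smg6 at -0.76. Txndc11 is also the member with the most transcripts: GENCODE M21 lists 9 of 563 to 4248 nt, against 4 of 2586 to 2843 nt for Txndc5 and 1 each for Kdelr3 and Dnajc3. Which transcripts carried the reads cannot be read from counts per gene. CKO a and CKO b were not used for this measure.

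**Figure D2:**
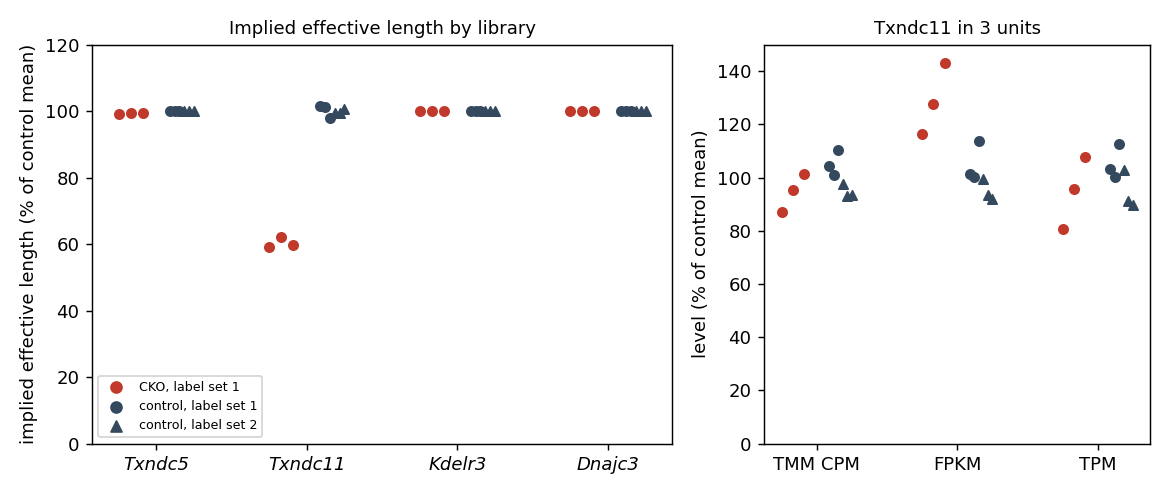
Left, effective length implied by count, total and FPKM, as percent of the control mean of each gene (vertical axis), in CKO 1 to 3 (red, left of each pair) and controls 1 to 6 (dark), with circles for label set 1 and triangles for label set 2. Right, the level of Txndc11 as percent of its control mean in TMM CPM, FPKM and TPM. Txndc11 alone of the 4 departs in length, at 1706 to 1798 nt in CKO and 2824 to 2932 nt in control libraries, and its CKO libraries lie above the controls in FPKM and not in CPM or TPM.

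The scaling of the libraries moved the median of all genes. The median log2 change over all genes tested was -0.07 with TMM, -0.32 with recovered totals as the only scaling and -0.60 with limma on log2(TPM + 1), both over the 9 matched libraries. It was 0.13 with the length trend removed. The share of called genes that were lower was 52.4% with TMM, 67.0% with recovered totals, 83.8% with TPM and 40.0% with the length trend removed. Changes of the 4 genes are therefore also given relative to the median gene of the same fit.

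Kdelr3 lay above the median gene and Txndc5 below it in all 26 fits of the CKO and control comparison. Relative to the median gene, Kdelr3 was 1.40 higher on the log2 scale with TMM, 0.99 with recovered totals, 0.80 with TPM and 0.63 with the length trend removed. Its own log2(TPM + 1) change, 0.20, had an adjusted p of 0.105 in limma, so the call was lost on that scale. Txndc5 relative to the median gene was -0.23 with TMM, -0.14 with recovered totals, -0.31 with TPM and -0.32 with the length trend removed. Its own change was called lower in every fit over all groups and was -0.91 with log2(TPM + 1).

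The place of Dnajc3 relative to the median gene depended on the fit. Its log2 change minus that of the median gene was 0.16 with TMM, 0.12 with recovered totals and -0.04 with log2(TPM + 1), or -0.37 with log2(TPM + 1) and no filter. With the length trend removed the value was 0.75, and its own change of 0.88 had an adjusted p of 7.51e-06 in edgeR. Its own change was -0.64 with log2(TPM + 1), with an adjusted p of 8.00e-05 in limma, so its direction depended on the scale. Dnajc3 is the longest of the 4, at a recovered effective length of 5207 nt, which is above the 5141 nt of its GENCODE transcript. Txndc11 was -0.18 with TMM and 0.45 with log2(TPM + 1) relative to the median gene, and its own change was negative in all 26 fits.

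**Figure D3:**
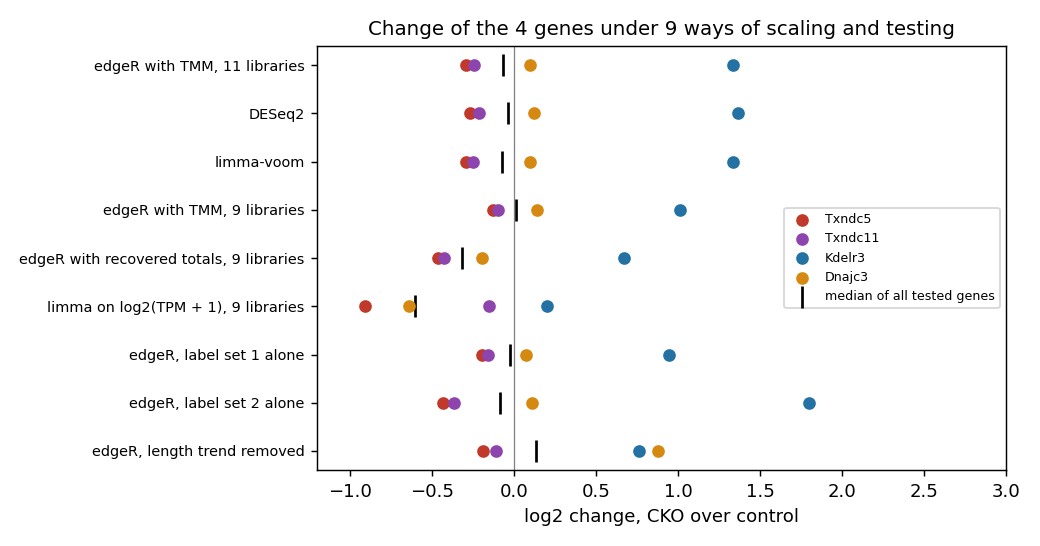
The log2 change of CKO over control (horizontal axis) of the 4 genes under 9 ways of scaling and testing (rows), with black bars at the median of all genes tested in the same fit. Kdelr3 is right of the bar and Txndc5 left of it in every row, while Dnajc3 lies at 0.09 with TMM, -0.64 with log2(TPM + 1) and 0.88 with the length trend removed.

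**Figure D4:**
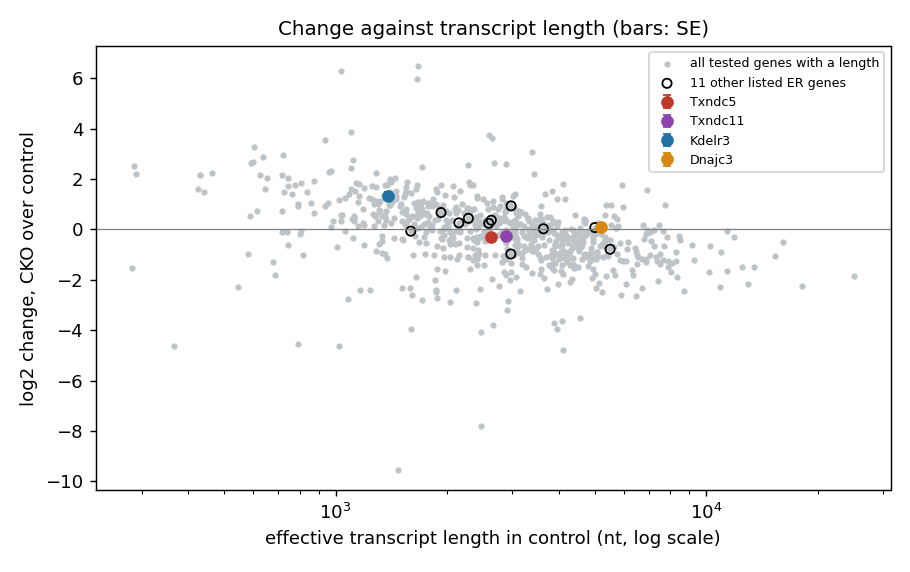
The log2 change of CKO over control in the TMM fit (vertical axis) against effective transcript length in control libraries (horizontal log axis, nt) for the 737 tested genes with a length, with the 4 genes in colour and SE bars and 11 other listed ER genes as open circles. Short genes lie mostly above 0 and long genes below it, with Kdelr3 at 1382.5 nt among the short genes and Dnajc3 at 5207 nt among the long ones.

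Other genes of ER folding, early secretory transport, quality control and the unfolded protein response were taken from 7 lists with 434 symbols. Of these symbols, 15 were in the table and tested, the 4 genes included. They are called listed ER genes here after the lists they came from, which does not place each protein in the ER. Psat1 and Shmt2, for example, were listed as targets of that response. Without the 4, 6 of 11 were called higher and 2 lower, where 34.1% and 37.5% of all genes tested were, and their median log2 change was 0.24, beside -0.07 over all genes tested. Among the disulfide isomerase and thioredoxin family, 3 of 41 symbols were tested and all 3 were called lower in CKO, as were 37.5% of all genes. They include Txndc5 and Txndc11, whose call rests on single libraries. The third is Qsox1, a sulfhydryl oxidase that introduces disulfide bonds. Qsox1 averaged 62.3 ± 10.3 CPM in CKO (SD, n = 5) and 119.8 ± 4.80 CPM in control libraries (SD, n = 6), with no overlap. Its log2 change was -0.97 (SE 0.09), with an adjusted p of 3.91e-06 in edgeR.

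Of the retrieval and early secretory list, 3 of 95 symbols were tested. Gbf1, the exchange factor that activates Arf for COPI coats, averaged 38.4 ± 8.42 CPM in CKO (SD, n = 5) and 63.5 ± 7.31 CPM in control libraries (SD, n = 6). Its log2 change of -0.78 (SE 0.08) had an adjusted p of 1.23e-05 in edgeR, and it was 0.00 with the length trend removed. Tmed4, a p24 cargo receptor, had a log2 difference of -0.07 (SE 0.11) and was not called. It was called lower with log2(TPM + 1) (-0.59) and with the length trend removed (-0.43). Kdelr3 was thus the 1 member of this list called higher, and its homologues Kdelr1 and Kdelr2 were not analysed here.

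Of the unfolded protein response list, Psat1 and Shmt2, enzymes of serine and glycine metabolism that ATF4 induces, were tested beside Dnajc3. Psat1 averaged 120.1 ± 7.60 CPM in CKO (SD, n = 5) and 100.7 ± 5.94 CPM in control libraries (SD, n = 6), a log2 change of 0.26 (SE 0.06) with an adjusted p of 0.00329 in edgeR. Shmt2 averaged 179.9 ± 29.6 CPM in CKO (SD, n = 5) and 132 ± 10.96 CPM in control libraries (SD, n = 6), a log2 change of 0.44 (SE 0.11) with an adjusted p of 0.00337 in edgeR. The groups overlapped for Shmt2 and not for Psat1. Both were lower in CKO on the TPM scale, at -0.39 for Psat1 and -0.56 for Shmt2.

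In ER-associated degradation, 2 of 72 symbols were tested and both were called higher in CKO, as were 34.1% of all genes. Ubxn8, which tethers p97 to the ER membrane, averaged 36.9 ± 3.53 CPM in CKO (SD, n = 5) and 19.2 ± 1.99 CPM in control libraries (SD, n = 6). Its log2 change was 0.94 (SE 0.10), with an adjusted p of 8.31e-06 in edgeR. Jkamp had a log2 change of 0.67 (SE 0.07), with an adjusted p of 8.84e-06 in edgeR, and no overlap between the groups. On the TPM scale the change was 0.03 for Ubxn8 and -0.04 for Jkamp.

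Of the translocation and N-glycosylation list, 4 of 76 symbols were tested. Srp54c, a signal recognition particle subunit, rose by 0.37 (SE 0.07) and Alg9, a mannosyltransferase of the lipid-linked sugar donor, by 0.24 (SE 0.07) on the log2 scale, with adjusted p of 0.000423 and 0.00659 in edgeR. Rpn1, a subunit of the oligosaccharyltransferase, had 0.03 (SE 0.08) and Ssr1, a translocon-associated protein, 0.08 (SE 0.07), and neither was called. On the TPM scale all 4 were below 0, from -0.52 for Rpn1 to -0.26 for Srp54c. With the length trend removed all 4 were above 0, from 0.34 for Alg9 to 0.85 for Ssr1. Rpn1 (0.53) and Ssr1 were then called higher. Dnajc3 was the only 1 of 60 symbols tested among ER chaperones, and none of the 38 for procollagen folding was held. Over the 15 genes, the calls were 7 higher and 4 lower with TMM and 10 higher and 3 lower with the length trend removed. They were 3 higher and 5 lower with recovered totals, and 0 higher and 10 lower with log2(TPM + 1). With the length trend removed, 310 of all 737 genes tested were called higher and 207 lower. Of all genes tested, 22.1% were called higher and 44.9% lower with recovered totals, and 12.7% higher and 66% lower with log2(TPM + 1), so 10 of 15 lower is near the background of that fit.

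**Figure D5:**
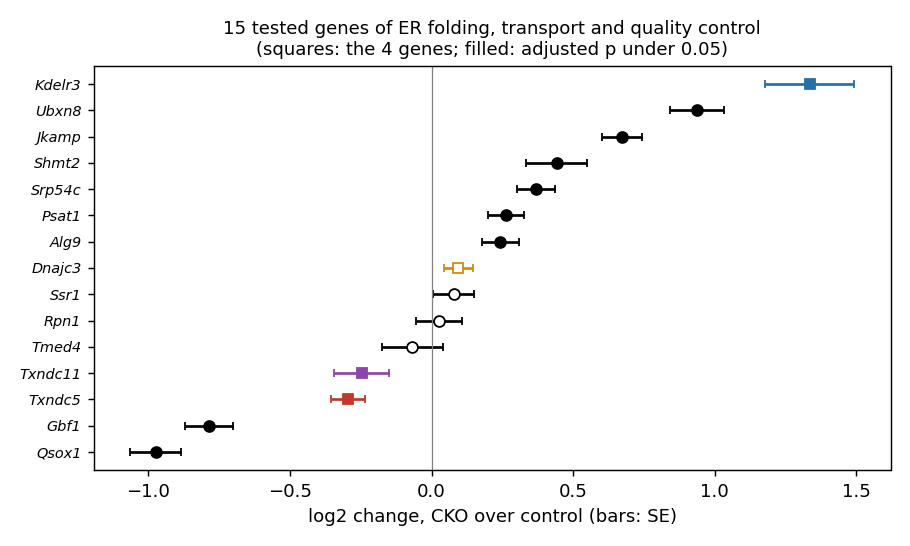
The log2 change of CKO over control with SE (horizontal axis) for the 15 tested genes of the ER lists (rows), with squares for the 4 genes and circles for the 11 others, filled where the edgeR adjusted p was under 0.05. The values run from -0.97 for Qsox1 to 1.34 for Kdelr3, and Dnajc3 is among the 4 that were not called.

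The genes whose profile over the 11 libraries was most like each of the 4 were found by the root mean square difference of centred log2 CPM. For Txndc5 they were Bbs4 at 0.0775, Pwp1 at 0.0828 and Arl2bp at 0.0873. Txndc11 was at 0.138 from Txndc5, and its own nearest genes were Slco3a1 at 0.0843, Ankrd1 at 0.116 and Mob3c at 0.120. The nearest to Kdelr3 were Spon2, a secreted matrix protein, at 0.0981, Tubg1 at 0.135 and Sharpin at 0.135. Dnajc3 had Nckap1l at 0.0628, Csnk1d at 0.0727 and Plekho2 at 0.0817. Kdelr3 stood at 0.877 from Txndc5, 0.897 from Txndc11 and 0.682 from Dnajc3 on the same measure.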

How the data were processed

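The 4 genes, the lists and the tests were chosen with earlier results of these data known. Per the file headers, the deposited table gives TPM, FPKM and expected counts per library in 33 columns. The authors' TPM is scaled to all transcripts of a library, and the deposited FPKM to fragments and transcript length. The deposited expected counts were rounded before testing. Per the submitters' processing notes, Bowtie2, RSEM, DESeq2 and GRCm38 were used, and versions and settings are not given in the sources used here. Of the table, 1293 genes were held here: 1141 had a value in every library, and 152 with a blank were not tested. The 4 TPM and FPKM columns of CKO a and CKO b were not used.

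Library totals were recovered from counts and FPKM. For CKO a and b, library size was estimated from the share of reads held in CKO 1 to 3. The main test was the quasi-likelihood F test of edgeR 4.0.16 (R 4.3.3) after TMM and filterByExpr, with label set as a term, and effects per set came from 1 fit with 4 group means. Implied effective length was computed from count, total and FPKM; gene lengths used control FPKM of at least 0.2. Alternatives were DESeq2 1.42.0, limma-voom (limma 3.58.1), recovered totals, limma on log2(TPM + 1), where a TPM of at least 1 in 3 libraries was required, other filters, no set term, a replicate block, each set alone, loess length offsets (span 0.5) and each library left out. The fits were tested on simulated data. Named genes are the 4, all tested genes of each list where there are 4 or fewer, and the 3 most similar profiles per gene, predicted names left out.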

Additional observations from a re-analysis of the deposited data

Results flagged for a closer look

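Of 42 groups of values examined, 5 had 1 library standing apart, and about 1 in 20 would by chance. For Txndc5, control 2 had 247 CPM against 261 to 266 CPM in the other controls, a gap of 0.740 of the group's range. For Srp54c, control 5 had the lowest CPM of the controls, with a gap of 0.719 of their range. CKO a stood apart in 2 log2 ratios of reads, that of Txndc11 to Dnajc3 at -2.75 against -2.22 to -2.03 in the other CKO libraries (gap 0.737) and that of Txndc5 to Txndc11 at 3.67 against 3.23 to 3.36 (gap 0.713). Control 4 had a log2 ratio of Txndc5 to Kdelr3 of 2.78, against 2.89 to 2.95 in the other controls (gap 0.658).

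The CKO change differed between the label sets for 2 of the 4 genes, by the edgeR test of the difference itself. For Kdelr3, label set 2 minus label set 1 was 0.84 on the log2 scale, and for Txndc5 it was -0.25, a call lost without CKO 3, CKO a or control 2. No explanation of these values was tested.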

How the results depend on the processing

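Txndc5 was called lower and Kdelr3 kept its direction in every fit over all groups, while Txndc11 lost its call and Dnajc3 changed direction in several. Txndc11 was not called with TMM in the 9 matched libraries (-0.10, chosen after seeing the data), log2(TPM + 1) with or without a filter (-0.15), log2(TPM + 0.1) (-0.16), no low-count filter (-0.24), no set term (-0.21), set 1 alone (-0.16), set 2 alone (-0.37) and the length trend removed (-0.11). Kdelr3 was not called with TPM (0.198 with a pseudocount of 1, filtered or not, and 0.2004 with 0.1). Dnajc3 was called with DESeq2 (0.12) and the length trend removed (0.88), and called lower with recovered totals (-0.20), log2(TPM + 1) with or without a filter (-0.64) and log2(TPM + 0.1) (-0.65). The cause of these shifts was not tested. With the length trend removed, set 1 gave -0.0834 for Txndc5 (not called) and 0.72 for Dnajc3 (called), and set 2 gave -0.21 for Txndc11 (not called) and 1.07 for Dnajc3, with a set difference of 0.35 for Dnajc3 (both called). DESeq2 also called Dnajc3 in set 2 (0.17).

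The log2 ratio of Kdelr3 to Dnajc3 turned to -0.11 with the length trend removed. In label set 1 alone the ratios differed by -1.13 (Txndc5 to Kdelr3), -0.27 (Txndc5 to Dnajc3), -1.096 (Txndc11 to Kdelr3) and 0.86 (Kdelr3 to Dnajc3), and in set 2 alone by -2.23, -0.54, -2.19 and 1.69 in that order. With FPKM in set 1 they were -1.12, -0.26, -0.36 and 0.86, with -0.75 for Txndc5 to Txndc11 and 0.49 for Txndc11 to Dnajc3, whose direction turned.

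Among the other listed ER genes, recovered totals turned Alg9 (-0.0218) and Shmt2 (-0.10). With log2(TPM + 1), filtered or not, and log2(TPM + 0.1), the values were -0.39 and -0.41 for Alg9, -0.037 and -0.038 for Jkamp, -0.385 and -0.389 for Psat1, -0.520 and -0.524 for Rpn1, -0.561 and -0.565 for Shmt2, -0.263 and -0.266 for Srp54c, and -0.51 for Ssr1 with both. Tmed4 was -0.59 with log2(TPM + 1). Rpn1 was -0.21 in set 2 alone. With the length trend removed, Gbf1 was 0.00163, Tmed4 -0.43, Rpn1 0.53 and Ssr1 0.85. Listed ER genes called higher numbered 3 with recovered totals and 0 with each TPM fit, in which 10 were called lower. With the length trend removed, 10 were called higher and 3 lower.

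Leaving out 1 library gave -0.29 to -0.12 for Txndc11, -0.65 to -0.11 for Txndc11 in set 2, -0.52 to 0.0253 for its set difference, -0.21 to -0.14 for Txndc5 in set 1 (not called without CKO 2) and -0.32 to -0.20 for the set difference of Txndc5 (not called without CKO 3, CKO a or control 2). The implied length of Txndc11 stayed between -0.75 and -0.71, with an exact permutation p of 0.0714 when a CKO library was left out, the smallest then possible.

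The replicate numbers are shared by CKO 1 to 3 and controls 1 to 3 and mark no stated pairing. The correlation of deviations between same-numbered libraries was 0.102, 0.0558 and 0.227. Each CKO library correlated best with its own number, but CKO 2 barely so, at 0.0505 with control 1. Between replicates, the chi-square of counts per degree of freedom was 21.7 for CKO 1 against CKO 2 and 19.8 against CKO 3. In the other pairs of the same group and set it was 2.31 to 8.02. With the replicate number as a block, 530 genes were called in place of 550, and Txndc11 had -0.25 with an adjusted p of 0.0622. Txndc11 had the fewest reads of the 4, 212 to 637 per library.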
